A study of Mus musculus with 8 samples.

Results

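The 10 genes described here are transcription factors and 1 related nuclear protein gene that take part in building the dorsal midbrain. They were taken by name from a table of 21959 genes, which holds 1 row for each of them. The names were chosen by their counts in these same libraries, since earlier results had shown several of them higher in the IsoL group than in the Model group. The difference between the groups in these 10 genes is therefore given as a description, and counts of them that passed a threshold support nothing.

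The dorsal midbrain, or tectum, forms the superior and inferior colliculi, which process visual and auditory signals. In the embryo its dorsal identity is marked by the paired box factors Pax3 and Pax7, and the AP-2 factors Tfap2b and Tfap2d are active in its neurons. Gata2, Gata3 and Tal1 are active as midbrain precursors become GABA neurons, and the same 3 factors are also known from blood cell formation. Gata2 and Gata3 act in serotonin neurons of the hindbrain too.

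Polyadenylated RNA labelled as wild-type mouse brain was sequenced in 8 libraries. The 4 Model libraries carry the treatment label PCPA (para-chlorophenylalanine, which blocks serotonin synthesis), and the 4 IsoL libraries the label isoliensinine (a lotus alkaloid studied for its effect on sleep). The series text describes female ICR mice treated for 7 days and a dissected hypothalamus. It does not say which isoliensinine dose was sequenced, nor whether the IsoL mice also received PCPA, and gives no age. Whether each library is its own mouse is not stated either, so SDs and p-values measure how far these libraries differ from each other, and that spread may be technical. An untreated group was not analysed here.

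Summed gene counts ran from 14262836 to 21620466 per library, and 3 counts corresponded to 0.139 to 0.21 per 1e6 counts before TMM scaling. CPM is the count divided by the TMM-scaled size of its library in units of 1e6 counts. The 4 Y-linked genes checked summed to 301 to 354 CPM in every library, which goes against the stated sex. Among all Model libraries, Model 1 and Model 2 lay farthest from the rest of their group, at mean Euclidean distances of 49.1 and 48.2 in log2 CPM, against 36.6 to 38.7 for the IsoL libraries. The tissue label reads brain. Of the hypothalamus named in the series text, Nkx2-1, its ventral homeobox factor, was read in all libraries, at 7.06 CPM or more. Genes of other regions were read too: Slc6a3, listed below for midbrain dopamine neurons, had 92.0 CPM or more in every library. The libraries are therefore not shown to hold hypothalamus alone.

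All 10 genes had a higher mean in IsoL than in Model, and 49.5% of all 14536 tested genes had a log2 change above 0. In 7 of them (Dmbx1, Tfap2d, Tfap2b, Mab21l2, Pax3, Gata3 and Tal1) every IsoL library lay above every Model library, a pattern that 4.04% of all tested genes showed in this direction and 8.48% in either direction. In the other 3 (Pax7, Gata2 and Barhl2) the groups overlapped. The fitted log2 changes (IsoL minus Model) ran from 0.17 for Gata2 to 3.79 for Dmbx1, with a median of 1.29, whereas the median of all tested genes was -0.00146. A log2 change above 1 was fitted for 6 of the 10 and for 0.578% of all tested genes. An adjusted p under 0.05 (quasi-likelihood test of edgeR, Benjamini-Hochberg over all tested genes) was reached by 3 of the 10, Dmbx1, Tfap2d and Mab21l2, and by 0.275% of all tested genes. Of the 10, 3 (Dmbx1, Tfap2d and Pax3) passed the filter on low counts only through their IsoL libraries. Since this contrast chose the genes, nothing is read from these shares. The number of the 10 called was 4 without the filter, 7 in DESeq2 and 4 in limma voom. Over all genes, these fits called 74 of 18438, 311 of 14536 and 238 of 14536. The number of the 10 called was 3 without Model 2, 1 without Model 3, 1 without IsoL 1, and 0 without each of the other 5 libraries. Over all genes, 146 were called without Model 2, 21 without Model 3, 8 without IsoL 1, and 6 to 16 without each of the others. Nothing is read from these numbers either. In bulk RNA, more cells that express a gene and more of its RNA per cell cannot be told apart.

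**Figure D1:**
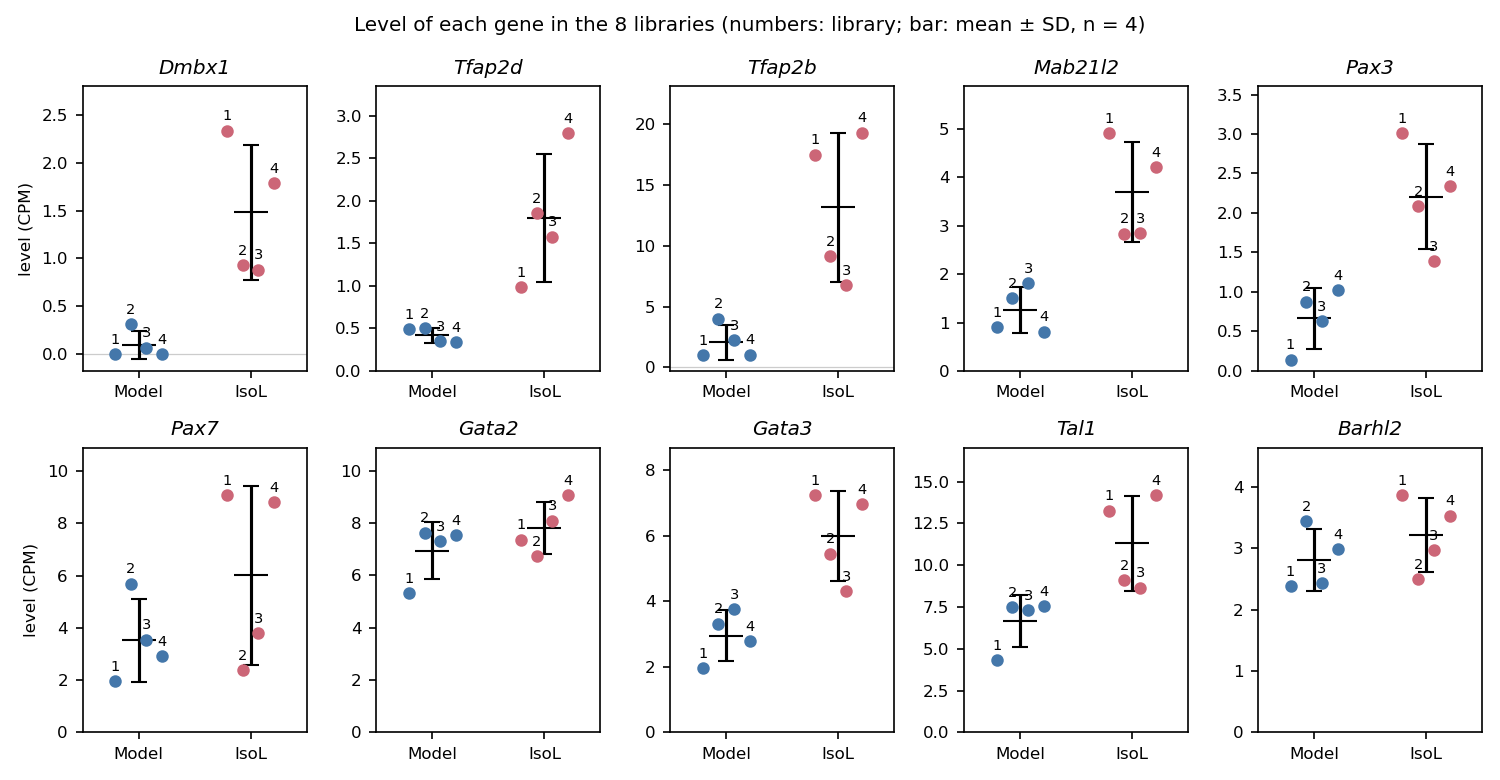
Level of each of the 10 genes in CPM in the 4 Model and 4 IsoL libraries, with points numbered by library and bars for the mean ± SD (n = 4). The groups are separate in 7 genes and overlap in Pax7, Gata2 and Barhl2, and IsoL 1 and IsoL 4 lie highest in most panels.

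The AP-2 factors bind DNA as dimers through a shared carboxy-terminal domain. Tfap2b, which in mice is also needed in the kidney and neural crest, had 0.978, 4.003, 2.22 and 1.02 CPM in Model 1 to 4 and 17.5, 9.15, 6.76 and 19.3 CPM in IsoL 1 to 4. The lowest IsoL library was thus above the highest Model library, and IsoL 1 and 4 stood well above IsoL 2 and 3. The group means were 2.06 ± 1.42 and 13.2 ± 6.14 CPM (SD, n = 4), the largest difference in CPM among the 10 genes, with a log2 change of 2.66 (SE 0.55). Tfap2d, needed in mice for the inferior colliculus to form, had 0.489, 0.5004, 0.348 and 0.339 CPM in Model and 0.982, 1.85, 1.58 and 2.79 CPM in IsoL. It also separated the groups, but its lowest IsoL library was IsoL 1, in which Tfap2b was near its highest. Tfap2d rested on 25 summed counts in Model and 134 in IsoL (log2 change 2.1, SE 0.38). Both genes lie on chromosome 1, 42.568 kb apart, so each is the nearest measured gene of the other on that side.

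Dmbx1, a paired-type homeobox gene of the embryonic midbrain and diencephalon whose loss in mice lowers feeding, was the lowest of the 10. It had 0, 5, 1 and 0 counts in Model 1 to 4 and 38, 16, 14 and 39 counts in IsoL 1 to 4. A count of 0 allows up to 0.206 CPM in Model 1 and 0.203 CPM in Model 4, and all IsoL libraries were above this, at 0.885 to 2.33 CPM. The ratio of the summed counts per depth was 14.9, with an exact 95% interval of 6.64 to 41.6 that covers counting error only. The fitted log2 change of 3.79 (SE 0.67) was 5.61 without Model 2, the library with 5 of the 6 Model counts. Mab21l2, needed in mice for the eye and active in the dorsal midbrain, had 0.909, 1.501, 1.81 and 0.814 CPM in Model and 4.91, 2.84, 2.84 and 4.21 CPM in IsoL. The groups did not overlap, and the log2 change was 1.55 (SE 0.29).

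The paired box genes Pax3 and Pax7, which are close relatives and also act in muscle precursors, differed from each other in how they varied. Pax3 had 0.1398, 0.876, 0.626 and 1.02 CPM in Model and 3.01, 2.09, 1.39 and 2.34 CPM in IsoL (log2 change 1.71, SE 0.40), on 40 and 158 summed counts. Its groups were separate. Pax7 had 1.96, 5.69, 3.55 and 2.92 CPM in Model and 9.08, 2.38, 3.79 and 8.80 CPM in IsoL (log2 change 0.77, SE 0.49). IsoL 2 and 3 lay within the Model range and IsoL 1 and 4 above it, so that Pax7 had the widest spread within IsoL of all 10 genes by coefficient of variation (57.1%).

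Of the factors active in midbrain GABA neurons, Gata3 and Tal1 separated the groups and Gata2 did not. Gata3 had 1.96, 3.31, 3.75 and 2.78 CPM in Model and 7.24, 5.45, 4.30 and 6.96 CPM in IsoL (log2 change 1.02, SE 0.22). Tal1, a basic helix-loop-helix factor that works in a complex with GATA factors, had 4.33, 7.51, 7.30 and 7.53 CPM in Model and 13.3, 9.10, 8.66 and 14.2 CPM in IsoL (log2 change 0.76, SE 0.21). In both genes IsoL 1 and 4 were again the highest and Model 1 the lowest. Gata2 had 5.31, 7.63, 7.30 and 7.53 CPM in Model and 7.36, 6.72, 8.09 and 9.07 CPM in IsoL. Its groups overlapped and its change of 0.17 (log2, SE 0.15) was close to its error. Reads of Gata3 cannot be told apart from those of the antisense gene 4930412O13Rik that overlaps it, because no strand marking is stated. That gene had 9 counts in Model and 23 in IsoL, against 176 and 432 for Gata3.

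Barhl2, a homeobox gene of commissural, retinal and diencephalic neurons, had 2.38, 3.44, 2.43 and 2.99 CPM in Model and 3.87, 2.49, 2.97 and 3.53 CPM in IsoL. Its groups overlapped, and its log2 change was 0.19 (SE 0.21). With Gata2 it had the smallest change of the 10.

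**Figure D2:**
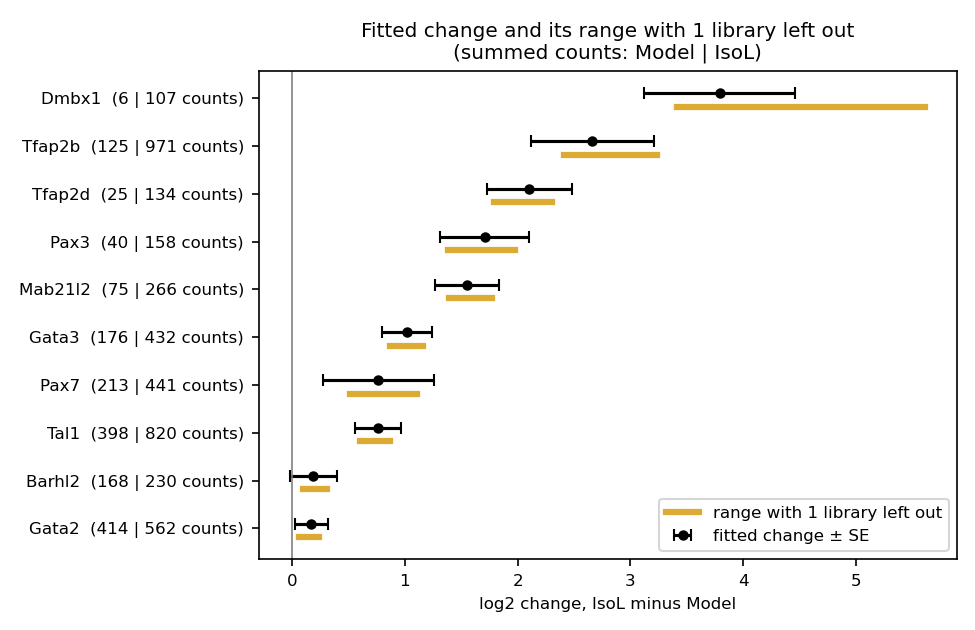
Fitted log2 change (IsoL minus Model) of each gene with its SE (points), and the range of that change with each of the 8 libraries left out in turn (bars), beside the summed counts of each group. All ranges lie above 0, from 0.06 to 0.24 for Gata2 up to 3.41 to 5.61 for Dmbx1.

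Levels of different genes were compared as the deposited FPKM, which divide by gene length. In Model the order of mean FPKM was Tal1 (1.52), Gata2 (1.29), Barhl2 (1.21), Gata3 (0.743), Pax7 (0.603), Mab21l2 (0.466), Tfap2b (0.325), Tfap2d (0.214), Pax3 (0.108) and Dmbx1 (0.0164). Neighbours in this order overlapped between libraries except Barhl2 with Gata3 and Tfap2d with Pax3. In IsoL Tal1 was again first (2.59), but Tfap2b was next (2.08), followed by Gata3 (1.51), Gata2 (1.45), Barhl2 (1.39), Mab21l2 (1.37), Pax7 (1.03), Tfap2d (0.925), Pax3 (0.357) and Dmbx1 (0.253). There only Tfap2d and Pax3 had separate neighbouring ranges. Tfap2b thus moved from position 7 to position 2, while Pax3 and Dmbx1 were the lowest in both groups. All 10 genes were low for brain RNA: their mean FPKM over the 8 libraries lay between percentiles 17.7 (Dmbx1) and 41.5 (Tal1) of the 18438 genes with any count.

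Ratios between related genes within a library do not depend on its depth. The FPKM ratio of Gata3 to Gata2 was 0.4999, 0.590, 0.698 and 0.501 in Model and 1.33, 1.10, 0.721 and 1.04 in IsoL, with no overlap. The ratio of Tal1 to Gata2 was 1.01 to 1.23 in Model and 1.32 to 2.22 in IsoL, also with no overlap. Gata3 and Tal1 separated the groups by themselves and Gata2 did not, so these ratios restate those changes. The share of other gene pairs without overlap was not computed. The ratio of Gata3 to Tal1 moved less, from 0.407 to 0.566 in Model and from 0.540 to 0.659 in IsoL, and overlapped. Tfap2b to Tfap2d overlapped as well, at 0.617 to 2.47 in Model and 1.32 to 5.49 in IsoL, the highest in IsoL 1. Pax7 to Pax3 ran from 3.03 to 14.8 in Model and from 1.202 to 3.97 in IsoL, and overlapped too.

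**Figure D3:**
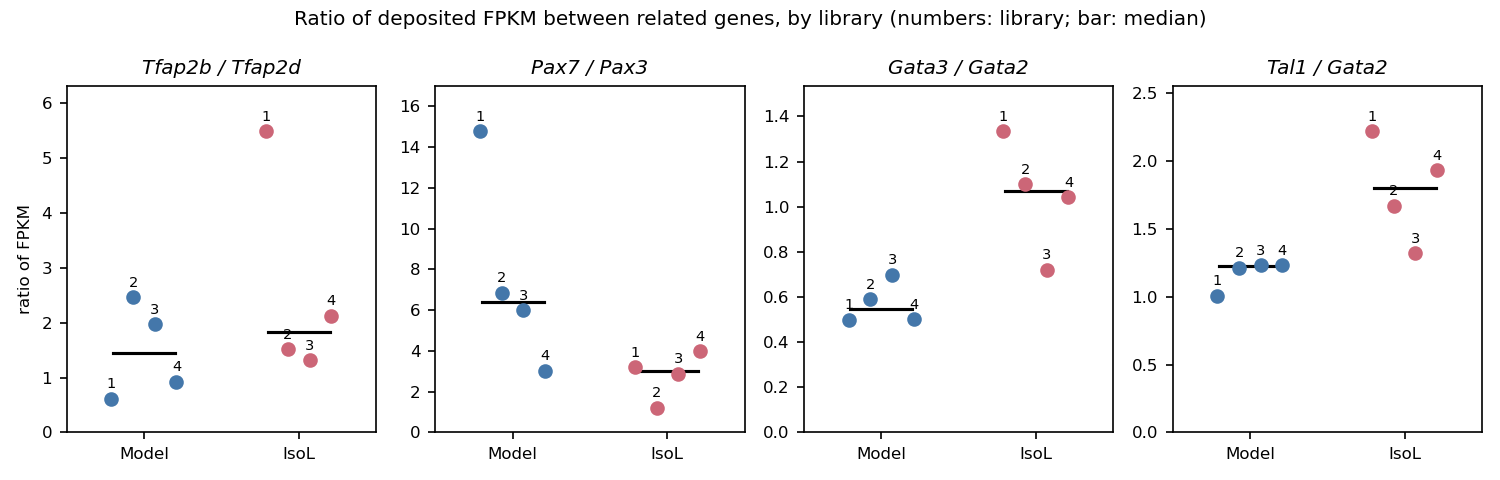
Ratio of deposited FPKM between 4 pairs of related genes in each library (points, numbered by library; bars, medians). Gata3 to Gata2 and Tal1 to Gata2 are higher in all 4 IsoL libraries than in all 4 Model libraries, as are Gata3 and Tal1 themselves. The Tfap2b to Tfap2d and Pax7 to Pax3 ratios overlap.

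The libraries of a group fell into a similar order in many of the 10 genes. IsoL 4 was the highest or next highest IsoL library in 10 of 10 and IsoL 1 in 8 of 10, whereas IsoL 3 was the lowest in 5, IsoL 2 in 4 and IsoL 1 only in Tfap2d. In Model, Model 2 was the highest or next highest in 10 of 10 and Model 1 the lowest in 7. The summed level of the 10 genes was 18.5 to 34.8 CPM in Model and 41.3 to 73.0 CPM in IsoL. Gata3 and Mab21l2 lay nearest to the mean profile of the 10 genes over the 8 libraries, at Euclidean distances of 0.672 and 0.695 in centred log2 CPM, and Dmbx1 lay farthest, at 2.54.

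The 5 other genes nearest to this mean profile were Gabrr2 (distance 0.738), Cdhr1 (0.775), Myoc (0.798), Otx2 (0.862) and Trpv4 (0.902), against a median distance of 2.19 for the 14526 other tested genes. They were picked for this likeness, so their difference between the groups is a description as well. Gabrr2, which encodes a rho subunit of ionotropic GABA receptors, had 0.419 to 0.813 CPM in Model and 1.01 to 2.02 CPM in IsoL. Cdhr1, a photoreceptor cadherin gene, had 2.24 to 5.01 and 5.21 to 12.8 CPM. Myoc, the myocilin gene, had 0.559 to 1.81 and 2.49 to 4.12 CPM. In each of these 3, IsoL 1 and 4 were the highest and Model 1 the lowest. Otx2, the homeobox gene that specifies the midbrain and is kept on in the choroid plexus, had 5.10, 9.38, 9.59 and 7.94 CPM in Model and 19.0, 12.3, 10.7 and 15.0 CPM in IsoL. Trpv4, a cation channel gene, was at 0.769 to 1.38 and 2.21 to 4.36 CPM.

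Other transcription factors of the midbrain, listed whatever their place in it, went both ways, so their median speaks for no part of the list. Of 30 listed genes 26 were tested, and 0 passed in edgeR, 13 lay above Model and 13 below, and the median log2 change was -0.00168. With an unadjusted p under 0.05, 5 genes were higher and 4 lower, and 3 passed in DESeq2 and none in limma voom. Such a p in edgeR, in either direction, was reached by 1922 of all 14536 tested genes. Every count of this kind given for a list is to be read beside that number. The 2 with the smallest p were Irx2, an Iroquois homeobox gene (log2 change 0.45, SE 0.13, edgeR adjusted p = 0.151), and Otx2 (0.83, SE 0.22, edgeR adjusted p = 0.152). The 3 that passed in DESeq2 were Otx2 (adjusted p = 0.0100), Pou4f1 (0.00426) and Pou4f2 (0.00168), the last 2 named after their values were seen. Pou4f1, a POU homeobox gene of the habenula and tectum, had 4.33, 7.07, 10.7 and 9.16 CPM in Model and 16.6, 11.4, 14.2 and 19.0 CPM in IsoL (edgeR adjusted p = 0.162). Pou4f2, its relative, had 0.136 to 0.563 CPM in Model and 4.79, 0.637, 0.885 and 3.66 CPM in IsoL (edgeR adjusted p = 0.165). In both, IsoL 1 and 4 were the highest libraries, as in most of the 10 genes. Six3, a forebrain homeobox gene named after its values were seen, passed in edgeR only without Model 2, with a log2 change of -0.69 there (edgeR adjusted p = 0.0211).

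Among 18 paralogs of the 10 genes 7 passed the filter on low counts. In edgeR 0 passed, and 4 were higher and 0 lower at an unadjusted p under 0.05. DESeq2 called 1, Otx2, and limma voom 0. The median log2 change of these 7 was 0.62. Mab21l1, the close copy of Mab21l2, was at 3.42 ± 0.494 CPM in Model and 5.36 ± 1.43 CPM in IsoL (log2 change 0.65, SE 0.20, edgeR adjusted p = 0.192). Tal2, also a factor of midbrain GABA neurons, had 26 and 65 summed counts and was named after they were seen (log2 change 1.08, edgeR adjusted p = 0.285). For Barhl1, the paralog of Barhl2, the log2 change was 0.37 and the adjusted p in edgeR 0.589. Pax4, Gata4 and Gata5 had 0 counts in all libraries, and Gata1, the red cell relative of Gata2, had 1 count in all (also named after its values were seen).

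The 16 protein partners of the GATA, TAL1 and AP-2 factors were all tested and had a median log2 change of 0.04. In edgeR 0 passed, 3 were higher and 2 lower at an unadjusted p under 0.05, DESeq2 called 0 and limma voom called 1, Lmo1, a LIM-only gene (adjusted p = 0.0483). Zfpm2, a FOG cofactor of GATA proteins, was at 15.3 ± 1.64 CPM in Model and 19.7 ± 2.44 CPM in IsoL (log2 change 0.37, SE 0.11, edgeR adjusted p = 0.158). Kctd15, an inhibitor of AP-2 activity, was at 17.2 ± 1.64 and 14.5 ± 0.825 CPM (log2 change -0.26, edgeR adjusted p = 0.260).

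Markers of nearby regions were summed in each library, since the 10 genes are expressed in a small part of the brain. None of the genes in these lists passed in edgeR. The 13 hypothalamus markers summed to 79.9 to 84.6 CPM in Model and 44.2 to 70.2 CPM in IsoL, without overlap. Of the 12 tested, 10 lay below Model (median log2 change -0.65), 7 of them at an unadjusted p under 0.05. Over all 14536 tested genes, 1922 had such a p in either direction. In DESeq2 4 of the hypothalamus markers passed and in limma voom 3. The 2 with the smallest p were Nkx2-1 (log2 change -0.66, edgeR adjusted p = 0.0687) and Hmx2, a hypothalamic homeobox gene (-1.49, edgeR adjusted p = 0.0837). The 10 markers of midbrain dopamine neurons, which lie in the ventral midbrain, summed to 507 to 590 CPM in Model and 402 to 527 CPM in IsoL. All 9 tested were below Model, 4 at an unadjusted p under 0.05, and DESeq2 called 2 and limma voom 1. They included Ret, a growth factor receptor gene (log2 change -0.30, edgeR adjusted p = 0.0654), and Slc6a3, the dopamine transporter gene (-0.38, edgeR adjusted p = 0.222).

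The 7 markers of serotonin neurons summed to 22.9 to 49.6 CPM in Model and 20.7 to 59.0 CPM in IsoL, and split each group. Tph2, the serotonin synthesis gene of the brain, had 1.75, 1.001, 14.1 and 10.7 CPM in Model 1 to 4 and 20.003, 3.36, 2.21 and 21.3 CPM in IsoL 1 to 4 (named after its values were seen). IsoL 1 and 4, the libraries with most of the highest values of the 10 genes, were also those with the most Tph2. In Model, Model 2 had the least Tph2 and the highest level of 6 of the 10 genes. The part of serotonin neurons in the levels of the 10 genes was not tested. None of 6 tested serotonin markers was called by edgeR, DESeq2 or limma voom, and 2 were lower at an unadjusted p under 0.05, Slc22a3 (log2 change -0.48, edgeR adjusted p = 0.259) and Gch1 (-0.36, edgeR adjusted p = 0.282).

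Markers of thalamus and pretectum summed to 960 to 1053 CPM in Model and 855 to 1104 CPM in IsoL. Of the 9 tested, 1 was higher and 3 lower at an unadjusted p under 0.05, and DESeq2 and limma voom called 2 each. Rgs16, a regulator of G protein signalling, was lower by a log2 value of -0.36 (edgeR adjusted p = 0.0838) and Lhx9, a thalamic homeobox gene, higher by 0.27 (edgeR adjusted p = 0.116). The hindbrain and cerebellum list summed to 4.61 to 7.51 CPM in Model and 6.76 to 12.0 CPM in IsoL, with Hoxa3, Hoxb3, Hoxb5 and Atoh1 at 0 counts in all libraries. Its 4 tested genes included Slc6a5, the glycine transporter gene of inhibitory hindbrain neurons, at 1.37 ± 0.487 and 3.33 ± 1.22 CPM (log2 change 1.28, edgeR adjusted p = 0.108), which was the only one past an unadjusted p of 0.05 and was called by DESeq2 but not by limma voom.

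Cortical and hippocampal markers summed to 624 to 779 CPM in Model, to 1090 and 1077 CPM in IsoL 1 and 2, and to 720 and 629 CPM in IsoL 3 and 4. Neurod2 and Neurod6, neuronal factors of the forebrain, had high values in IsoL 1 and 2 and log2 changes of 2.65 and 2.098 (edgeR adjusted p = 0.313 and 0.425), and of the 9 tested genes of this list 1 was higher at an unadjusted p under 0.05 and none was called by DESeq2 or limma voom. A list of 10 choroid plexus genes, added after the data were seen, summed to 68.9 to 72.3 CPM in Model and to 802, 699, 119 and 59.9 CPM in IsoL 1 to 4. Its defining gene Ttr had 0.458 CPM in IsoL 4 and 609 CPM in IsoL 1. IsoL 4 had the lowest choroid plexus sum of all libraries, and it was the highest or next highest IsoL library in 10 of the 10 genes. Of its 7 tested genes, 4 were higher at an unadjusted p under 0.05, and DESeq2 called 3 and limma voom none, the 2 with the smallest p in edgeR being Folr1, a folate receptor gene (edgeR adjusted p = 0.204), and Ttr (0.252). The part of any of these regions in the levels of the 10 genes was not tested.

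Endothelial and blood genes were checked because Tal1 and Gata2 are also active there. The 14 endothelial genes summed to 406 to 445 CPM in Model and 390 to 445 CPM in IsoL, and the list of red cell, platelet and mast cell genes to 112 to 128 and 98.8 to 155 CPM. Muscle and melanocyte genes, which Pax3 and Pax7 can accompany, summed to 4.61 to 9.18 and 7.67 to 10.1 CPM, and meningeal genes to 44.0 to 187 and 87.8 to 138 CPM. All 4 lists overlapped between the groups. None of their genes was called by edgeR, DESeq2 or limma voom, and 0 reached an unadjusted p under 0.05. The smallest edgeR p belonged to Emcn and Cldn5 (adjusted p = 0.579 and 0.635) among endothelial genes, Itga2b and Hbb-bs (0.467 and 0.660) among blood genes, Pmel and Tyrp1 (0.462 and 0.688) among muscle and melanocyte genes, and Foxc1 and Lum (0.693 and 0.786) among meningeal genes.

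**Figure D4:**
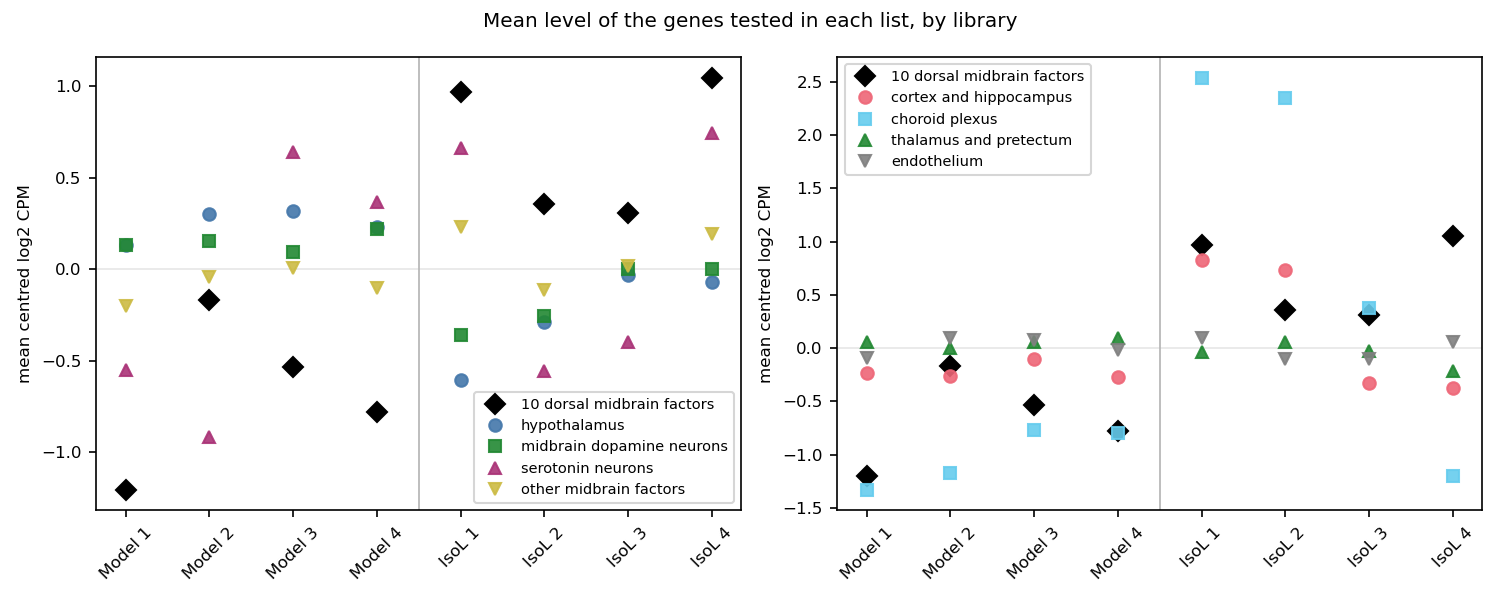
Mean centred log2 CPM of the tested genes of each list in the 8 libraries, with the 10 dorsal midbrain genes as black diamonds in both panels. The 10 genes are highest in IsoL 1 and IsoL 4, serotonin markers share that within IsoL, hypothalamus markers are lower in all 4 IsoL libraries, and choroid plexus markers are high in IsoL 1 and 2 and low in IsoL 4.

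The 10 genes lie on 6 chromosomes, given here as the deposited table has them. The sources used here name no genome build for it. Chromosome 1 holds Tfap2d (19173246 to 19236570), Tfap2b (19279138 to 19308800) and Pax3 (78077904 to 78173771), and chromosome 4 holds Tal1 (114913623 to 114928952), Dmbx1 (115772316 to 115797123) and Pax7 (139464373 to 139560839). Gata3 is on chromosome 2 (9861889 to 9894845), Mab21l2 on chromosome 3 (86452888 to 86455590), Barhl2 on chromosome 5 (106600389 to 106606032) and Gata2 on chromosome 6 (88170873 to 88184014). Mab21l2 lies inside the gene Lrba on the opposite strand, and Lrba was at 46.2 CPM in Model and 46.4 CPM in IsoL (log2 change 0.01, edgeR adjusted p = 0.965). Of the 21 other genes that overlap or flank the 10, 14 were tested. In edgeR 0 passed, DESeq2 and limma voom called 0, and 1 had an unadjusted p under 0.05, Sgpp2 beside Pax3 (log2 change -0.27, edgeR adjusted p = 0.148). Their log2 changes ran from -0.27 to 0.12 with a median of 0.00734. Stil and Pdzk1ip1, on either side of Tal1, had changes of -0.07 and -0.04 (edgeR adjusted p = 0.934 and 0.971), and Faah, the anandamide hydrolase gene beside Dmbx1, of 0.07 (edgeR adjusted p = 0.725). In the table's gene ontology, 9 of the 10 carry the term for DNA-binding transcription factor activity, which 2.81% of all genes carry, and the exception is Mab21l2. Cell fate determination is attached to 3 of them and to 0.0729% of all genes.

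Promoters were read to see what genes with similar profiles share in sequence. RefSeq windows of 300 bases (250 before and 50 after the start site, GRCm38.p6, whose coordinates are not to be set beside those of the table) matched 9 of the 10 genes with 13 start sites. The table holds 32851 windows in all. CpG counts differed widely among the 10: 42 in Barhl2, 32 and 29 at the start sites of Gata2, 30 in Dmbx1 and 22 in Gata3, against 14 in Mab21l2, 8 in Tfap2b and 5 to 10 in Tfap2d, with a median of 7 over all windows. The windows were searched on both strands for 6 motifs, none of which contains another. AGATAA is bound by Gata2 and Gata3, and GCCNNNGGC by the AP-2 factors. CAGCTG is a common E-box, and the E-box CAGATG is of the kind that complexes with Tal1 bind. TAATTA is the core of many homeodomain sites, and TATAAA is the TATA box. AGATAA was found in 1 of the 13 windows (Tal1) and in 11.2% of all windows, GCCNNNGGC in 2 (Gata2 and Gata3) and in 16.6%, CAGCTG in 2 (the same windows of Gata2 and Gata3) and in 16.3%, CAGATG in 1 (Tal1) and in 17.2%, TAATTA in none and in 5.29%, and TATAAA in 1 (Mab21l2) and in 13.6%. The 3 windows with a match other than TATAAA are shown for their matches. The window of Dmbx1 is shown because its fitted change was the largest of the 10. All are 5′ to 3′ on the strand of the gene, and capitals mark the matches.
Tal1, upstream start, chr4:115056176-115056475, plus strand: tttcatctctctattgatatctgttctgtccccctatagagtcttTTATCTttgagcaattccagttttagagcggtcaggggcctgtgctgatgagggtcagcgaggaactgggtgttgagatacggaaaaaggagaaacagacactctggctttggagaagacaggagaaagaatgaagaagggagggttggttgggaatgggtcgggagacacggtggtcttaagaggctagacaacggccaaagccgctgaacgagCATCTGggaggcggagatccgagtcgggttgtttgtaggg
Gata3, chr2:9878551-9878850, minus strand: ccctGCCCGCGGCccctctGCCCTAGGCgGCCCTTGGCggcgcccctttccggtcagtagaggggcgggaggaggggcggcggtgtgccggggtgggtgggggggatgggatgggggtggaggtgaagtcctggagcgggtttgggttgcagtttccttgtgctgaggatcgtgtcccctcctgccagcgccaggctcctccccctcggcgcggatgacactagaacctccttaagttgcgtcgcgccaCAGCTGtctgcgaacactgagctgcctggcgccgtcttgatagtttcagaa
Gata2, downstream start, chr6:88198414-88198713, plus strand: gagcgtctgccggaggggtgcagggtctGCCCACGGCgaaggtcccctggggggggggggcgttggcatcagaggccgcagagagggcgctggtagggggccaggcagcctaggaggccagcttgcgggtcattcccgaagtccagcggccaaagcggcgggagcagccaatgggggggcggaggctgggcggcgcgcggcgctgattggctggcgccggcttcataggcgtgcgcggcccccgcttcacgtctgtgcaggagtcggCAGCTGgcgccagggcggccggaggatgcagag
Dmbx1, chr4:115939877-115940176, minus strand: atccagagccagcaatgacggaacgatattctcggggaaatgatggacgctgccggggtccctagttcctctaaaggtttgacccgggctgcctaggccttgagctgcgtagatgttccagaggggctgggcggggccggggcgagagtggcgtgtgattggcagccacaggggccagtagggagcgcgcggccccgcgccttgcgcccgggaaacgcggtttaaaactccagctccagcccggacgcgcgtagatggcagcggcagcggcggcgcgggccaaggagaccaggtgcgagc
In Tal1 the AGATAA match is read on the opposite strand as TTATCT and the CAGATG match as CATCTG. In Gata3 the 3 AP-2 matches sit together at the upstream end and the CAGCTG at the start site, and Gata2 has 1 match of each kind. Dmbx1 has no match to these motifs in this window. A match is a description of the letters and says nothing about binding.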

How the data were processed

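RNA from 8 libraries was counted per gene. Per the file headers, the deposited table holds read counts and FPKM for each gene and library, besides gene length (another deposited unit, used for annotation and to check the FPKM). FPKM deposited by the authors match the counts, length and library totals within a relative difference of 1.11e-09 for genes over 200 counts. The submitters' processing notes name fastp 0.22.0, HISAT2 2.1.0 and HTSeq 0.9.1. No genome build or strand setting is given in the sources used here.

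Groups came from the sample titles. Counts of 21959 genes were filtered with filterByExpr (14536 kept, all 10 genes described among them), scaled with TMM and IsoL was tested against Model by quasi-likelihood with robust dispersion (edgeR 4.0.16 in R 4.3.3), with Benjamini-Hochberg adjustment over all tested genes. SEs were derived from the log2 change and its F statistic. CPM used TMM-scaled library sizes, and log2 CPM a prior count of 2. Intervals on count ratios are exact binomial ones. The fit was tested on simulated data with known changes and the same dispersion for every gene. It therefore does not cover the wider spread of several of the 10 genes.

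The 10 genes and all lists were chosen with earlier results of these data known. Named were the 10 genes, every called gene of a list (with none called, its 2 lowest p-values) and the 5 nearest profiles. Others were named after their values were seen. The lists of choroid plexus, meningeal and Y-linked genes were added after seeing the data. The alternatives were leaving out single libraries, a block for the replicate number, size factors from DESeq2, dropping the filter, and the tests of DESeq2 1.42.0 and of limma 3.58.1 (voom with quality weights). Figures were drawn with matplotlib 3.10.9.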

Additional observations from a re-analysis of the deposited data

Results flagged for a closer look

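In 2 of the 20 sets of 4 library values of the 10 genes (10 genes in 2 groups), 1 library stood apart from the other 3 by Dixon's criterion at 95%, which chance gives in about 1 of 20 sets. Both were in Model 1: Gata2 at 5.31 CPM, against 7.30 to 7.63 CPM in the other Model libraries, and Tal1 at 4.33 CPM, against 7.30 to 7.53 CPM. Without Model 1 the log2 change was 0.06 for Gata2 and 0.61 for Tal1, against 0.17 and 0.76 with it.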

How the results depend on the processing

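The fitted changes of the 10 genes were positive in all 130 values from the 13 alternatives. Of these, 128 moved by less than 1 SD between libraries and 2 did not, both for Dmbx1: 4.68 in limma voom and 5.61 without Model 2. For Pax7, Gata2 and Barhl2 this SD (0.79, 0.22 and 0.26) was larger than the fitted change (0.77, 0.17 and 0.19). The measure could therefore not show a loss of the change in these genes. The median change of the 10 genes was 1.13 to 1.42 with 1 library left out. With each library left out, an alternative added after seeing the data, all 10 genes kept a higher IsoL mean. For the genes without overlap this was fixed in advance, since each of their IsoL libraries lay above every Model library. The 10 genes were also chosen by this contrast, so nothing is read from it. The number of genes without overlap between the groups was 7 each time, but leaving out a library cannot lower that number.

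The count of called genes among all tested was 40 and depended more on the processing: 74 without the filter on low counts, 311 in DESeq2, 238 in limma voom, and 6 to 146 with 1 library left out (6 without Model 4 or IsoL 2, 146 without Model 2). With the replicate block it was 17, and 0 of the 10 genes were called. Same-numbered libraries deviated together only weakly (correlations of 0.0199 to 0.0696), so they are not taken as pairs. Of the other midbrain factors 0 were called, 3 in DESeq2 and 0 to 1 with 1 library left out. Of the paralogs and partners 0 were called, 1 in DESeq2 and 1 in limma voom, and 0 with any library left out. The cause of these differences was not tested. Dmbx1, Tfap2d and Pax3 rest on at most 40 summed counts in Model, which limits the precision of their folds.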
